A study of Homo sapiens with 4 samples.

Results

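Human U87 cells were read here for 10 genes of the microtubule lattice and its regulation: 4 alpha-tubulin genes (TUBA1A, TUBA1B, TUBA1C and TUBA4A), 5 beta-tubulin genes (TUBB, TUBB2A, TUBB3, TUBB4B and TUBB6) and STMN1, which encodes stathmin. Members were matched by gene symbol in the 4 deposited gene tables, and all 10 were found among 27940 symbols. All 10 passed the filter of a mean of at least 1 FPKM, as did 11394 genes in all. FPKM counts fragments relative to transcript length and to all mapped fragments, so levels of different genes can be set side by side within a library, and libraries were scaled before they were compared. U87 is an established human glioma line. The group called shPTPRN3 (2 libraries) carried a lentiviral hairpin that targets PTPRN, a phosphatase-like receptor of dense-core vesicles. The group called shNC (2 libraries) carried a lentivirus made from the empty FUGW-H1 vector per the labels' protocol, whereas the design text names H1-RFP (WT). Both groups were therefore infected cells grown in serum-containing DMEM, with 1 hairpin in the first group. The design text calls the libraries biological replicates without saying whether they came from separate cultures, so p-values rest on variation among 4 libraries that may be technical.

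Alpha- and beta-tubulin form the heterodimer that polymerises into microtubules, and each is encoded by several genes whose products are called isotypes. Stathmin binds free tubulin dimers and promotes microtubule shortening, and its phosphorylation by mitotic kinases releases tubulin when the spindle forms. Cells also adjust tubulin mRNA to the amount of free tubulin: when free dimers are abundant, the factor TTC5 recognises the first residues of a nascent tubulin chain and the mRNA is degraded.

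The coding starts of the members are shown because these first residues carry that signal and because they show how alike the genes are. The first 30 coding bases are given 5′ to 3′ on the coding strand, from GENCODE 29 transcripts, with the first 4 codons in capitals.
TUBA1A: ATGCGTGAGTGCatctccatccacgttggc
TUBA1B: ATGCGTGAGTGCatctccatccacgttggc
TUBA1C: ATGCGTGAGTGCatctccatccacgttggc
TUBA4A: ATGCGTGAATGCatctcagtccacgtgggg
TUBB: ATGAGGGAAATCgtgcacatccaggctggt
TUBB2A: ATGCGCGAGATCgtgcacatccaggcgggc
TUBB3: ATGAGGGAGATCgtgcacatccaggccggc
TUBB4B: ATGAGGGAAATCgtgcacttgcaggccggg
TUBB6: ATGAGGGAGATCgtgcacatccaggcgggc
STMN1: ATGGCTTCTTCTgatatccaggtgaaagaa
TUBA1A, TUBA1B and TUBA1C were identical over these 30 bases, although they are separate genes on chromosome 12. The fourth codon was TGC in the 4 alpha-tubulins, ATC in the 5 beta-tubulins and TCT in STMN1. Over whole coding sequences TUBA1A and TUBA1B were 97.2% identical, TUBA1B and TUBA1C 97.3% and TUBA1A and TUBA1C 96.3%. TUBA4A was 85.0% to 86.3% identical to those 3 genes, and pairs of the 5 beta-tubulins were 81.3% to 88.7% identical.

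Such likeness bears on how far the single values can be read. Of all 50-base stretches in the coding sequence, 75.8% in TUBA1B, 58.6% in TUBA1A and 57.0% in TUBA1C also occurred in a gene elsewhere in the genome. The share was 78.5% in TUBB2A, mostly through its neighbour copy TUBB2B, and 33.4% in TUBB. It was 12.2% in TUBB4B, 11.7% in TUBB3, 1.55% in TUBB6 and 0% in TUBA4A and STMN1. How fragments of shared stretches were assigned is not given in the sources used here, so the split among TUBA1A, TUBA1B and TUBA1C, and between TUBB2A and TUBB2B, is uncertain. TUBB had 8 rows, on chromosome 6 and 7 alternate sequences of it, with nearly equal values within a library, and they were summed. The level of TUBB and its place among the members depend on this: its chromosome 6 row alone came to 43.0 and 29.9 scaled FPKM in shPTPRN3 and to 57.8 and 50.7 in shNC, about 8 times less than the sum, with rank 9 of 10 in both groups.

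The members lie at these places in hg38, counted from 1. TUBA1B spans chr12:49127784-49131395, TUBA1A chr12:49184795-49189324 and TUBA1C chr12:49227926-49274600, while TUBA4A spans chr2:219249710-219254608. TUBB spans chr6:30720352-30725418, TUBB2A chr6:3153666-3157544, TUBB3 chr16:89921925-89936097, TUBB4B chr9:137241287-137243707 and TUBB6 chr18:12307669-12329825. STMN1 spans chr1:25884179-25906877. TUBB6 overlaps AFG3L2, which was listed at 0 in shPTPRN3 replicate 1 and shNC replicate 1 and at 23.8 and 30.8 FPKM in shPTPRN3 replicate 2 and shNC replicate 2. TUBA4A overlaps TUBA4B and STK16, the second listed at 0 in all 4 libraries.

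Values below are FPKM divided by a scale factor for each library (0.943 to 1.05) and are called scaled FPKM. PTPRN itself stood at 5.22 and 3.42 FPKM as deposited in shPTPRN3 libraries and at 28.6 and 19.3 FPKM in shNC libraries. Its limma log2 fold change was -2.22 ± 0.34 (SE, adjusted p = 0.0594), so it did not pass 0.05. The fold change ran from -2.45 to -1.98 as each library was left out. Correlations of log2 values across genes were 0.936 within shPTPRN3, 0.922 within shNC and 0.847 to 0.924 between the groups. The tables give no counts, so depth is unknown apart from the deposited confidence intervals. Taken as counting error, the intervals of STMN1 correspond to 1022 and 104 fragments in shPTPRN3 libraries and to 2662 and 1055 in shNC libraries. For TUBA1B, TUBB4B and TUBB6 the deposited FPKM lay above its own interval in all 4 libraries, so no precision is given for them. Of 7 glioma line markers 4 were tested and none was called. VIM stood at 1887 and 1193 scaled FPKM in shPTPRN3 and at 2098 and 1698 in shNC, and CD44 at 84.6 to 97.7 in the 4 libraries. SPARC, a matrix glycoprotein, stood at 229 and 170 in shPTPRN3 and at 37.7 and 34.4 in shNC (limma adjusted p = 0.0595). NES was lower, at 1.30 and 0.972 in shPTPRN3 and at 2.35 and 4.01 in shNC (log2 fold change -0.94, limma adjusted p = 0.289). The glial marker GFAP was listed at 0 in all 4 libraries, and S100B and SOX2 did not exceed 0.245.

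None of the 10 members passed the test over all genes (limma, Benjamini-Hochberg adjusted p under 0.05), against 48 of 11394 genes, or 0.421%. At an unadjusted limma p under 0.05 there was 1 of 10 members, STMN1, against 1533 of 11394 tested genes. The median log2 fold change, shPTPRN3 minus shNC, was -0.30 over the members, with 7 negative and 3 positive, and -0.0063 over all tested genes. For STMN1 and TUBB both shPTPRN3 libraries lay below both shNC libraries, as was so for 23.1% of all tested genes. TUBA4A alone lay above in both, as did 21.5% of tested genes, and the other 7 members overlapped. With genes listed at 0 in any library left out, 219 of 11127 genes, or 1.97%, passed the test, and STMN1 was among them.

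**Figure D1:**
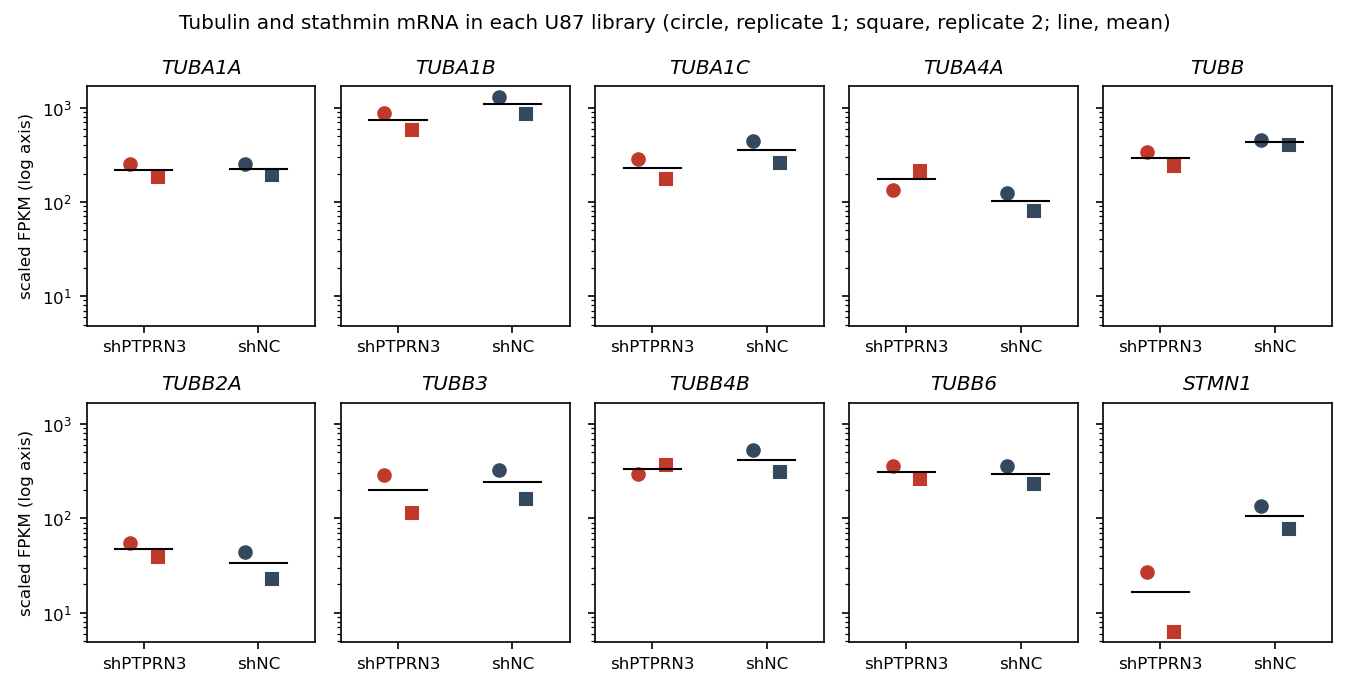
Scaled FPKM of the 10 members in every library, on a log axis, with shPTPRN3 left of shNC in each panel and 1 point per library. TUBA1B was the highest member in both groups, and only STMN1 shows a wide gap between the groups, with 26.9 and 6.31 in shPTPRN3 against 136 and 77.3 in shNC.

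STMN1 was the member with the largest difference. It stood at 26.9 and 6.31 scaled FPKM in shPTPRN3 libraries, against 136 and 77.3 in shNC libraries. The groups did not overlap, and the shPTPRN3 libraries differed from each other by a factor of 4.27, more than the 1.76 between shNC libraries. The means were 16.6 ± 14.6 in shPTPRN3 and 107 ± 41.8 in shNC (SD, n = 2 each), which leaves 15.6% of the shNC level. The deposited 95% intervals were 26.6 to 30.1 and 4.78 to 7.11 FPKM in shPTPRN3 libraries and 137 to 148 and 70.8 to 80.1 FPKM in shNC libraries, and these intervals cover error within a library only. The log2 fold change was -2.86 ± 0.65 (SE), with a 95% interval of -4.40 to -1.32 and an adjusted p of 0.117 from limma, so it did not pass the test. Only 0.290% of tested genes had a lower fold change, and the 5th and 95th percentiles of all tested genes were -1.13 and 0.95.

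Whether STMN1 passed the test depended on single libraries and on genes listed at 0. With genes listed at 0 left out, limma gave an adjusted p of 0.0390, and over 17 alternatives without a replicate block it ran from 0.00718 to 0.384. It was 0.00718 without shPTPRN3 replicate 1 (log2 fold change -3.83) and 0.332 without shPTPRN3 replicate 2 (-1.88). It was 0.384 without shNC replicate 1 (-2.45) and 0.307 without shNC replicate 2 (-3.27), and the sign was negative in all 4 of these fits.

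Levels of 5 genes followed STMN1 most closely across the 4 libraries, by Euclidean distance between centred values of log2(scaled FPKM + 1). Candidates were 4803 genes averaging at least 10 FPKM and listed at 0 in no library. The 5 nearest were CCNB2 (distance 0.0287), BIRC5 (0.117), CCNB1 (0.314), RRM2 (0.386) and AURKB (0.435). CCNB2 and CCNB1 encode B-type cyclins, BIRC5 encodes survivin and AURKB encodes Aurora B kinase, all acting in mitosis, and RRM2 encodes a subunit of ribonucleotide reductase, which makes deoxynucleotides. CCNB2 stood at 5.92 and 0.785 scaled FPKM in shPTPRN3 and at 32.2 and 18.4 in shNC. The added 1 understates changes at such low levels, so the distances and the order of the 5 genes can depend on it. In bulk RNA, fewer cells in a given state and less RNA per cell cannot be told apart.

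Promoter sequence is shown for STMN1 and for TUBA4A, the members with the lowest and the highest fold change. The 250 bases before the start site are given 5′ to 3′, from RefSeq on GRCh38.p14, for STMN1 at chr1:25906420-25906669 and for TUBA4A at chr2:219253919-219254168, both on the minus strand. Capitals mark a match to an E2F motif (TTTCCCGC, TTTGGCGC, TTTCGCGC or TTTGCCGC) or to CCAAT, on either strand.
STMN1: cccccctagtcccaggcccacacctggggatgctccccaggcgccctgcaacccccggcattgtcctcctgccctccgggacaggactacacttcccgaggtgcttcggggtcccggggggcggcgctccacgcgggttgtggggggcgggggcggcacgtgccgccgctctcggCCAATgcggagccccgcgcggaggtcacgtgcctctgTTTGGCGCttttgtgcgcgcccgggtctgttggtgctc
TUBA4A: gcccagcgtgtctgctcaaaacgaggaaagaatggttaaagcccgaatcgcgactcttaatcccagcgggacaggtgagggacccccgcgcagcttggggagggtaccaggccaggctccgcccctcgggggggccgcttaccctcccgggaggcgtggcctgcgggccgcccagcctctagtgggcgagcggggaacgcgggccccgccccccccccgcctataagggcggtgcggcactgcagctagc
STMN1 has 3 annotated windows, and the printed one, which held both motifs, has TTTGGCGC from base -38 and CCAAT from base -75 relative to its start site. Of the other STMN1 windows, that at chr1:25905996-25906295 held none of the motifs and that at chr1:25906831-25907130 held an E2F motif from base -250 and no CCAAT. The TUBA4A window held none of the motifs. Windows of 300 bases (250 before the start site and 50 after) were searched for E2F, for CCAAT and for the cell cycle homology region, TTTGAA or TTCGAA, on both strands. An E2F motif occurred in 3.315% of 35116 RefSeq promoter windows, CCAAT in 34.61% and the homology region in 16.35%. Of the 17 windows of the 10 members, 2 held an E2F motif, both of them at STMN1. CCAAT was found in 9 windows, of TUBA1A, TUBA1C, TUBB, TUBB3, TUBB4B, TUBB6 and STMN1, and the homology region in 5, of TUBA1C, TUBB3 and TUBB4B. A match describes letters and is not evidence of binding.

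None of the 4 alpha-tubulins passed the test, and 3 of them overlapped between the groups. TUBA1B, the most abundant, stood at 887 and 582 scaled FPKM in shPTPRN3 libraries, against 1299 and 865 in shNC libraries. The groups overlapped, and the log2 fold change was -0.56 ± 0.58 (SE, limma adjusted p = 0.731). By the same distance as for STMN1, the 5 genes nearest to TUBA1B across the 4 libraries were NADK (0.0706), RNASEH1-AS1 (0.0724), NAXE (0.0752), RABEPK (0.0775) and NDUFV2 (0.0940), none of them a tubulin. TUBA1C stood at 285 and 176 in shPTPRN3 and at 448 and 258 in shNC, again overlapping, with a log2 fold change of -0.60 (95% interval -1.80 to 0.61). TUBA1A, a neuronal alpha-tubulin, stood at 253 and 183 in shPTPRN3 and at 252 and 191 in shNC, with a log2 fold change of -0.03 (95% interval -1.07 to 1.01). TUBA1A was thus the member with the smallest difference, and its interval still allows a change of about 1 in either direction.

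TUBA4A, whose product is expressed in muscle, brain and platelets among other tissues, was the only member with both shPTPRN3 libraries above both shNC libraries. It stood at 133 and 214 scaled FPKM in shPTPRN3 and at 124 and 79.3 in shNC. The nearest values, 133 and 124, differ by little beside the spread within each group. The log2 fold change was 0.76 ± 0.45 (SE, limma adjusted p = 0.493), with a range of 0.44 to 1.10 when each library was left out. Its overlapping gene TUBA4B stood at 2.39 and 5.80 in shPTPRN3 and at 1.93 and 2.47 in shNC.

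Among the beta-tubulins only TUBB did not overlap between the groups. TUBB, the widely expressed class I isotype, stood at 342 and 239 scaled FPKM in shPTPRN3 and at 459 and 404 in shNC. The log2 fold change was -0.59 ± 0.47 (SE, limma adjusted p = 0.632). TUBB4B, another widely expressed isotype, stood at 299 and 372 in shPTPRN3 and at 526 and 309 in shNC. Its log2 fold change was -0.27, with a 95% interval of -1.45 to 0.91. TUBB6, a class V isotype, stood at 359 and 260 in shPTPRN3 and at 359 and 230 in shNC, and its log2 fold change of 0.09 ran from -0.24 to 0.41 as libraries were left out.

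The remaining beta-tubulins are best known from neurons. TUBB3, the class III isotype used as a neuron marker and found in many tumour lines, stood at 288 and 113 scaled FPKM in shPTPRN3 and at 324 and 159 in shNC. The spread within each group was wider than the gap between the means of 201 and 242. Replicate 1 was the higher library in both groups for TUBB3, as for TUBB2A, TUBA1A, TUBA1B, TUBA1C, TUBB, TUBB6 and STMN1. TUBB2A stood at 55.2 and 38.7 in shPTPRN3 and at 44.3 and 22.6 in shNC, with a log2 fold change of 0.53 (95% interval -0.49 to 1.55). TUBB2A plus TUBB2B came to 79.2 and 57.5 in shPTPRN3 and to 71.6 and 35.3 in shNC. SYN1, a defining synapse gene, was listed at 0 in all 4 libraries. Of 9 neuron markers, 7 were below the filter, and the summed level of all 9 was 29.8 and 14.2 in shPTPRN3 and 8.65 and 10.1 in shNC, most of it SNAP25.

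**Figure D2:**
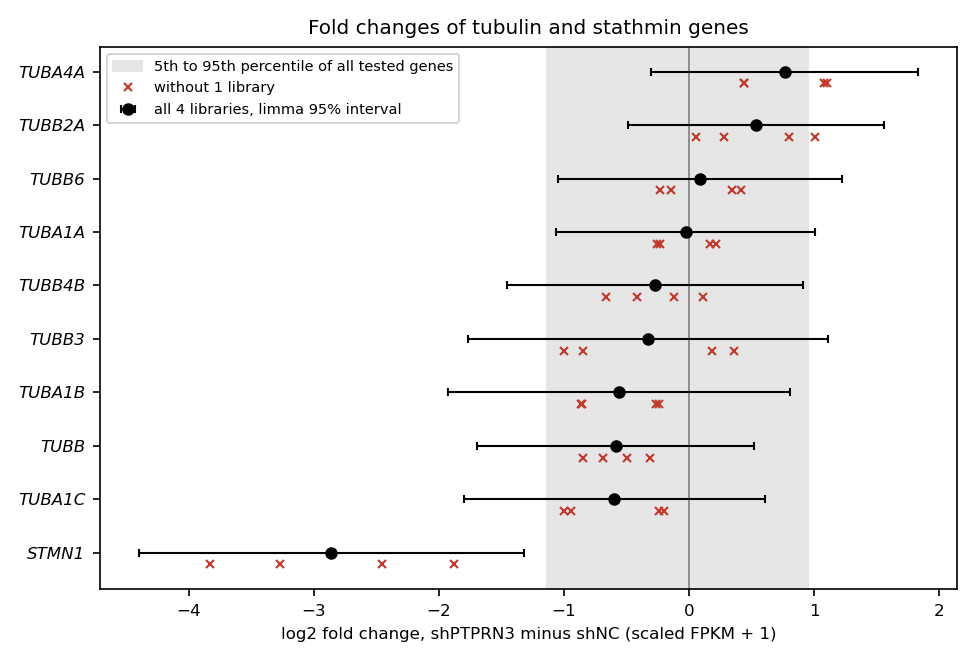
Log2 fold change of each member, shPTPRN3 minus shNC, with its 95% interval from limma, and the values with each library left out. The intervals of the 9 tubulins cross 0 and that of STMN1, -4.40 to -1.32, does not.

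In order of level, TUBA1B stood above every other member in each group, with 582 to 887 in shPTPRN3 and 865 to 1299 in shNC against at most 372 and 526 for the others. In shPTPRN3 the order of means continued with TUBB4B, TUBB6, TUBB, TUBA1C, TUBA1A, TUBB3 and TUBA4A, and neighbours among these 7 overlapped. TUBB2A and then STMN1 followed, each below the range of the gene before it. In shNC the order after TUBA1B, with TUBB summed over its 8 rows, was TUBB, TUBB4B, TUBA1C, TUBB6, TUBB3 and TUBA1A, with overlapping neighbours. STMN1 and TUBA4A came next and overlapped each other, and TUBB2A was last. With TUBB so summed, STMN1 was rank 10 of 10 in shPTPRN3 and rank 8 of 10 in shNC. From its chromosome 6 row alone TUBB would take rank 9 in both groups.

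Sums over the paralogues set aside part of the uncertainty in the single genes, but FPKM divides by each gene's own length, so the sums still depend on how shared fragments were divided. The 4 alpha-tubulins summed to 1557 and 1156 scaled FPKM in shPTPRN3 and to 2122 and 1394 in shNC, with overlapping groups and a log2 difference of -0.36. The 5 beta-tubulins summed to 1344 and 1022 in shPTPRN3 and to 1712 and 1124 in shNC, also overlapping, with a log2 difference of -0.24. With the chromosome 6 row of TUBB alone they summed to 1045 and 813 in shPTPRN3 and to 1312 and 771 in shNC, with a log2 difference of -0.13. An exact permutation test of 2 against 2 libraries cannot go below a two-sided p of 0.333, so no such test can pass. TUBA1A, TUBA1B and TUBA1C together came to 1424 and 942 in shPTPRN3 and to 1999 and 1314 in shNC. The 9 tubulins made up 0.745% and 0.653% of all FPKM in shPTPRN3 and 0.835% and 0.785% in shNC. The ratio of the alpha to the beta sum was 1.16 and 1.13 in shPTPRN3 and 1.24 and 1.24 in shNC. With the chromosome 6 row of TUBB alone the ratio was 1.49 and 1.42 in shPTPRN3 and 1.62 and 1.81 in shNC.

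Each isotype's share of the alpha- or beta-tubulin pool shows how the members stood relative to one another. TUBA4A made up 8.54% and 18.5% of alpha-tubulin FPKM in shPTPRN3 and 5.82% and 5.69% in shNC. TUBA1B made up 57.0% and 50.4% in shPTPRN3 and 61.2% and 62.1% in shNC. The share of TUBA1A was 16.2% and 15.9% in shPTPRN3 and 11.9% and 13.7% in shNC. That of TUBA1C was 18.3% and 15.3% in shPTPRN3 and 21.1% and 18.5% in shNC. Of the beta-tubulin FPKM, TUBB2A took 4.11% and 3.79% in shPTPRN3 and 2.58% and 2.01% in shNC. TUBB6 took 26.7% and 25.4% of beta-tubulin in shPTPRN3 and 21.0% and 20.4% in shNC. TUBB took 25.5% and 23.3% in shPTPRN3 and 26.8% and 35.9% in shNC. The shares of TUBB3 and TUBB4B overlapped between the groups. TUBB3 took 21.5% and 11.1% in shPTPRN3 and 18.9% and 14.2% in shNC. TUBB4B took 22.2% and 36.4% in shPTPRN3 and 30.7% and 27.5% in shNC. With the chromosome 6 row of TUBB alone, TUBB took 4.12% and 3.68% in shPTPRN3 and 4.405% and 6.58% in shNC, and every other beta-tubulin share was larger: TUBB6 then took 34.4% and 32.0% in shPTPRN3 and 27.4% and 29.8% in shNC. Shares within a pool depend on one another, and no exact permutation test of 2 against 2 libraries can pass. Relative to all tubulin, STMN1 stood at 0.929 and 0.290 per 100 tubulin FPKM in shPTPRN3 and at 3.56 and 3.07 in shNC.

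**Figure D3:**
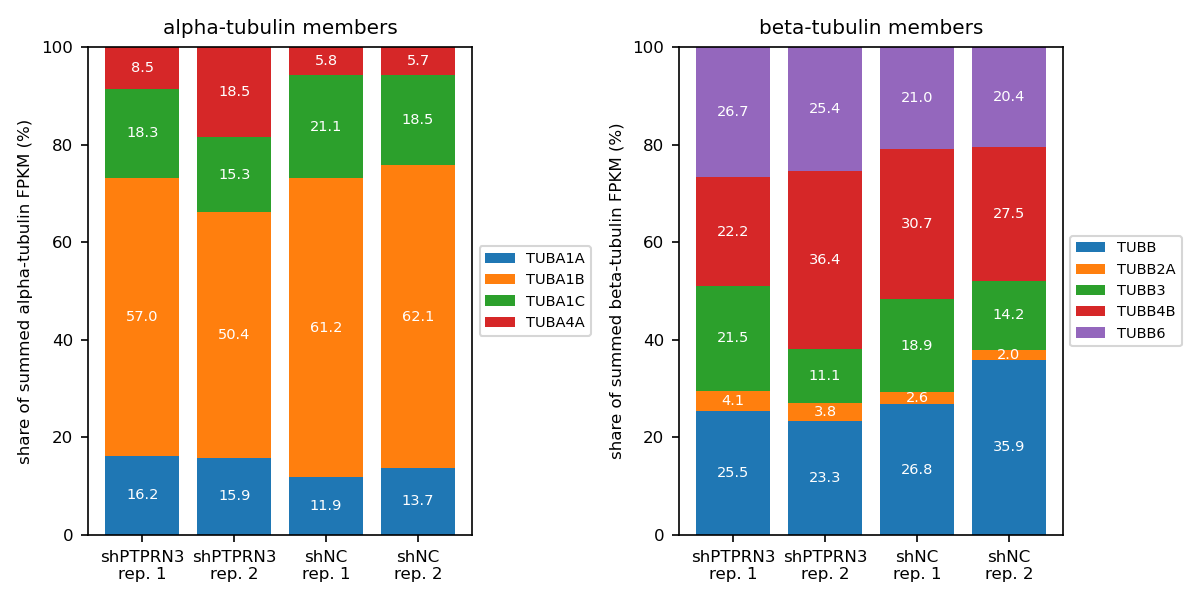
Share of each isotype in the alpha-tubulin and in the beta-tubulin FPKM of each library, in percent, with TUBB summed over its 8 rows and shPTPRN3 libraries left of shNC libraries. TUBA1B holds the largest alpha share in all 4 libraries, and TUBA4A is larger in both shPTPRN3 libraries (8.54% and 18.5%) than in shNC (5.82% and 5.69%).

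The other genes of the pathway were read from lists chosen with earlier results of these data known. Of 14 other tubulin genes, 6 passed the filter and none was called (limma), with TUBG1, gamma-tubulin itself, at 78.8 and 77.6 scaled FPKM in shPTPRN3 and at 105 and 70.2 in shNC. The stathmin relatives STMN2, STMN3 and STMN4 were all below 1 FPKM. Of 23 tested genes of tubulin folding and autoregulation, none was called, and the median log2 fold change was 0.05. In this list 5 lay below in both shPTPRN3 libraries and 1 above, against 23.1% and 21.5% of all tested genes. CNOT11, which recruits the CCR4-NOT deadenylase in tubulin autoregulation, stood at 13.8 and 10.9 in shPTPRN3 and at 20.6 and 22.6 in shNC. CCT6A, a subunit of the chaperonin that folds tubulin, stood at 48.3 and 57.4 in shPTPRN3 and at 85.8 and 85.6 in shNC. These log2 fold changes were -0.77 (adjusted p = 0.367) and -0.69 (adjusted p = 0.439).

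Gamma-tubulin ring and nucleation genes had a median log2 fold change of -0.47, against -0.0063 over all tested genes, with 18 of 22 negative and none called by limma. Of the 22, 10 lay below in both shPTPRN3 libraries and 1 above, against 23.1% and 21.5% of all genes. HAUS7, an augmin subunit, stood at 1.60 and 0.832 scaled FPKM in shPTPRN3 and at 8.69 and 4.84 in shNC (log2 fold change -1.79 ± 0.38 (SE), adjusted p = 0.102). MZT1, a small subunit of the gamma-tubulin ring complex, stood at 8.76 and 3.32 in shPTPRN3 and at 14.8 and 11.6 in shNC. With genes listed at 0 left out, HAUS7 was the 1 called member of this list among 21 tested, against 1.97% of all 11127 genes.

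Microtubule-associated and plus-end proteins had a median log2 fold change of 0.35, with 4 of 22 above in both shPTPRN3 libraries, none below in both (21.5% and 23.1% of all tested genes) and 16 of 22 tested genes positive, again with none called. MAP1B, a lattice-binding protein of axons, stood at 74.8 and 196 scaled FPKM in shPTPRN3 and at 27.8 and 100 in shNC, and MAP1A at 55.8 and 196 in shPTPRN3 and at 24.8 and 93.4 in shNC. Replicate 2 was the higher library in both groups for both genes, and the groups overlapped. Genes with a median transcript length of at least 4000 bases also took more of all FPKM in replicate 2. Their share was 7.17% and 10.1% in shPTPRN3 and 4.76% and 9.91% in shNC. Their median log2 fold change was 0.09, against -0.12 for genes below 1000 bases. The part of transcript length in the levels of MAP1A and MAP1B was not tested. MAPRE2, a plus-end binding protein, stood at 15.2 and 20.7 in shPTPRN3 and at 9.27 and 12.1 in shNC, without overlap (log2 fold change 0.69). Of 17 tested tubulin modification enzymes none was called, with a median of 0.07. Among these enzymes 7 lay above in both shPTPRN3 libraries and 3 below, against 21.5% and 23.1% of all tested genes. TPGS2, a subunit of the tubulin polyglutamylase complex, stood at 31.2 and 27.6 in shPTPRN3 and at 15.0 and 14.6 in shNC (0.94, adjusted p = 0.257 by limma). AGBL5, a carboxypeptidase that removes glutamates from tubulin, stood at 12.5 and 11.1 in shPTPRN3 and at 16.4 and 24.4 in shNC (-0.72, adjusted p = 0.420 by limma). TTLL12, of the tubulin tyrosine ligase-like family, stood at 5.51 and 3.66 in shPTPRN3 and at 7.29 and 8.29 in shNC (-0.67).

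Severing and depolymerising proteins had a median of 0.06 over 12 tested genes, with none called. Of the 12, 4 lay below in both shPTPRN3 libraries and 2 above, against 23.1% and 21.5% of all tested genes. KIF2C, which depolymerises microtubule ends at kinetochores, stood at 3.01 and 0.547 scaled FPKM in shPTPRN3 and at 17.6 and 11.8 in shNC (log2 fold change -2.63 ± 0.49 (SE), adjusted p = 0.0787 by limma). KIF18B, a mitotic kinesin of microtubule plus ends, stood at 1.81 and 0.249 in shPTPRN3 and at 9.42 and 6.96 in shNC (adjusted p = 0.0826). KIF24 was listed at 0 in both shPTPRN3 libraries and at 3.31 and 2.64 in shNC libraries. With genes listed at 0 left out, limma called KIF2C and KIF18B among 11 tested genes of this list, against 1.97% of all 11127 genes. As each library was left out, the log2 fold change ran from -3.30 to -1.93 for KIF2C and from -2.85 to -1.69 for KIF18B. For KIF24 it ran from -2.12 to -1.97, and KIF24 was not tested without shNC replicate 1.

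The list of stathmin kinases and phosphatase held 1 called gene, CDK1, among 12 tested, against 0.421% of all tested genes. The list median was -0.24, with 7 genes negative and 5 positive. Of the 12, 5 lay below in both shPTPRN3 libraries and 2 above, against 23.1% and 21.5% of all tested genes. CDK1, a mitotic kinase that phosphorylates stathmin, fell to 2.21 and 0.411 scaled FPKM in shPTPRN3, against 30.3 and 20.1 in shNC (log2 fold change -3.59 ± 0.46 (SE), limma adjusted p = 0.0361). Without shNC replicate 1 its adjusted p was 0.126 and without shNC replicate 2 it was 0.158, and the fold change stayed between -4.17 and -2.99 over the 4 omissions. The call was lost in 9 of 17 alternatives without a replicate block, over which the adjusted p ran from 0.00208 to 0.212 (limma). AURKB, which also phosphorylates stathmin, stood at 7.45 and 0.729 in shPTPRN3 and at 48.7 and 21.8 in shNC (limma adjusted p = 0.133). Its log2 fold change was -3.14 and ran from -4.27 to -1.98 as each library was left out.

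Proliferation markers lay on the same side as STMN1. All 6 (MKI67, PCNA, TOP2A, CDK1, CCNB1 and TK1) lay below in both shPTPRN3 libraries, as did 23.1% of all tested genes. Their median was -3.09 on the log2 scale. The limma test was passed by 2 of 6, MKI67 and CDK1, as lower, against 0.421% of all tested genes in either direction. Their summed level was 64.6 and 34.1 scaled FPKM in shPTPRN3 and 309 and 221 in shNC. MKI67, a marker of cycling cells, fell to 1.90 and 0.566 in shPTPRN3, against 15.6 and 34.3 in shNC (log2 fold change -3.51 ± 0.48 (SE), limma adjusted p = 0.0465). Without shNC replicate 2 the adjusted p of MKI67 was 0.202, and its call was likewise lost in 9 of 17 alternatives, with adjusted p from 0.00387 to 0.220 (limma). The part of cell cycle state in the level of STMN1 was not tested. For the other cell types, epithelial markers were all below the filter, and of 6 blood and endothelial markers only CD68, a lysosomal protein, passed it, at 434 and 326 in shPTPRN3 and at 225 and 253 in shNC.

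**Figure D4:**
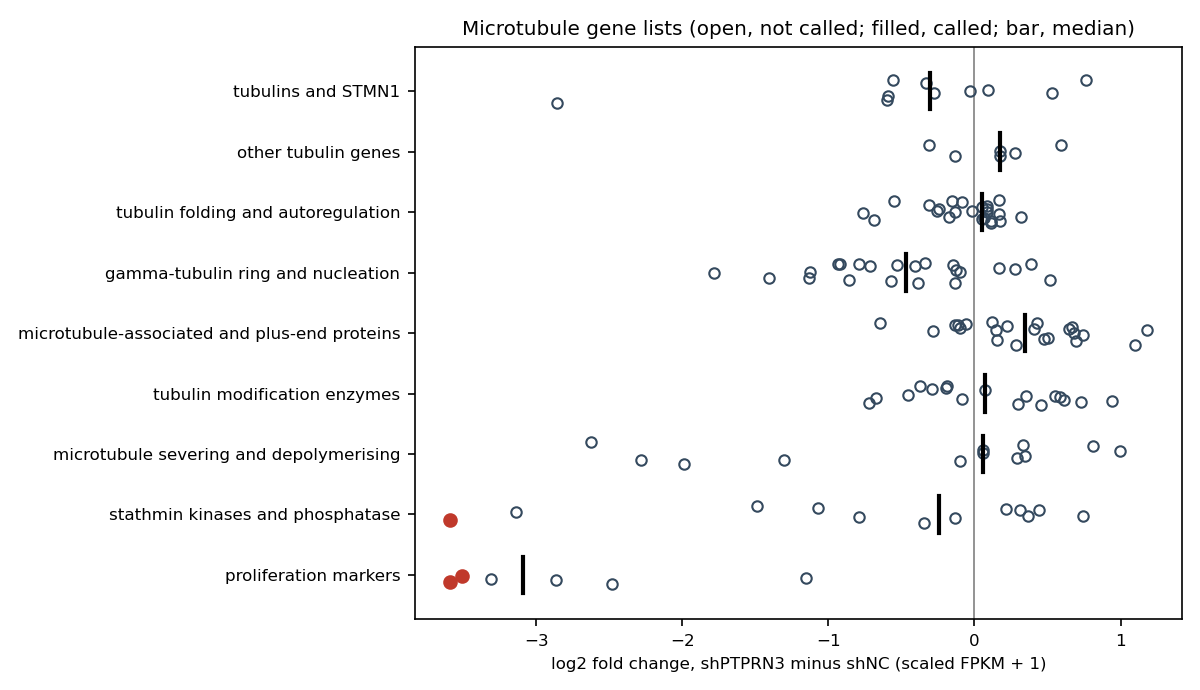
Log2 fold change, shPTPRN3 minus shNC, of each tested gene in the members and the pathway lists, 1 point per gene, with the list median marked. The proliferation markers have a median of -3.09 and the gamma-tubulin ring and nucleation genes of -0.47.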

How the data were processed

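RNA of 4 U87 libraries was made into stranded mRNA libraries, as the labels' protocols state. The submitters' processing notes list STAR 2.6.0b-1, Cufflinks 2.2.1.2, FastQC 0.72 and build hg38, and which annotation and settings were used is not given in the sources used here. Per the file headers, the authors deposited FPKM with intervals and a status for 33646 gene rows. FPKM depends on the assumed transcript length and on how fragments of paralogues are shared.

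Rows not marked OK in every library (651) were left out and the rest summed per symbol, which adds 8 rows for TUBB and sets its level. FPKM were scaled by median ratios over 9988 genes. The test was limma 3.58.1 (R 4.3.3) on log2(scaled FPKM + 1), a scale that understates changes of low genes, with a trended prior, two-sided, adjusted over the 11394 genes averaging at least 1 FPKM (residual df 2, prior df 4.94). Sums were compared as values, because an exact permutation test of 2 against 2 libraries cannot go below 0.333.

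Members and lists were chosen with earlier results of these data known. The text names all 10 members and the 5 genes nearest to STMN1 and to TUBA1B, the highest member. From the lists it names some, often not all, of the 4 tested genes with the largest absolute fold change. Markers and genes that overlap or relate to a member are named beside these. Genes of that rank not named elsewhere include UHMK1 (log2 fold change -1.49), TUBGCP4 (-1.41), HAUS8 (-1.14), CDK2 (-1.07), CLASP1 (0.74) and TTLL7 (0.73). Python 3.11.15, pandas 2.3.3 and Biopython 1.88 joined tables and sequences, and matplotlib 3.10.9 drew figures. Alternatives changed scaling, pseudocount, filters, row handling, the prior and the libraries used; removing a length trend was added after seeing the data.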

Additional observations from a re-analysis of the deposited data

How the results depend on the processing

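The number of genes called by limma was 48 (9 higher, 39 lower). Deposited FPKM gave 31, TPM gave 30 (10 higher, 20 lower), and the number was 23 with a pseudocount of 0.1, 8 with a mean of at least 5 FPKM, 219 without genes listed at 0, 26 with a prior without trend and 160 with a robust prior. Without a filter limma called 0 genes, against 2163 at an unadjusted p under 0.05. It was 126 with the length trend removed, an alternative added after seeing the data, and 58 to 199 as each library was left out. Members called numbered 1 instead of 0 without genes listed at 0, and 0 to 1 as each library was left out; that member was STMN1, called without shPTPRN3 replicate 1. The members' median log2 fold change ran from -0.67 to 0.14 as each library was left out, positive without shNC replicate 1. The beta-tubulin sum ran from -0.55 to 0.0619, positive without shNC replicate 1, and was -0.13 without alternate sequences, against -0.24. The calls of CDK1 and MKI67 were each lost in 9 of 17 alternatives, among them deposited FPKM (adjusted p = 0.0661 for both by limma), TPM (0.0506 and 0.0796) and no filter (0.212 and 0.220). TUBA1A was 0.0623 on TPM, 0.0077 with the length trend removed and -0.26 to 0.22 as each library was left out. With each library left out, TUBB6 ran from -0.24 to 0.41, TUBB3 from -1.003 to 0.36 and TUBB4B from -0.66 to 0.11. The cause of these changes was not tested. The library numbers are shared by the groups, but the labels do not say that they pair samples: same-numbered libraries deviated together across genes (correlation 0.519) with 2 pairs only. With the replicate number as a block, 2168 genes and 1 member (STMN1) were called, on 1 residual degree of freedom. Depth is known from deposited intervals only, and STMN1 in shPTPRN3 replicate 2, at about 104 fragments, has the least among the STMN1 values.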
